A study of Mus musculus with 300 samples.

Results

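The 10 core circadian clock genes Arntl, Npas2, Clock, Per1, Per2, Per3, Cry1, Cry2, Nr1d1 and Nr1d2 were followed through 4 tissues of mice given agonists of the PPAR nuclear receptors. They were chosen by name among the 18193 genes of the array table, with earlier results of these data known. A gene with several probe sets was represented by the one brightest on average over the 300 arrays. The compounds were WY14643, which acts on PPAR-alpha, GW501516, which acts on PPAR-delta, and rosiglitazone, which acts on PPAR-gamma, each given by mouth at 10 mg/kg. The sample labels write WY14643, which is used here, and the design text of the series writes WY16453. Liver, heart, kidney and skeletal muscle were taken after 4, 8 and 15 days of dosing, from 5 mice per compound and day and from 10 vehicle mice per day. This gave 75 animals, 300 arrays and 48 groups, and the animal number in the labels ties the 4 tissues of a mouse together. Strain, sex, age, the composition of the vehicle and the hour of tissue collection were not given in the sources used here. Values are log2 intensities, so a difference of 1 is a doubling, and each replicate was a separate animal.

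The mammalian clock is a feedback loop of transcription. Arntl (also called Bmal1) pairs with Clock, or with its relative Npas2, and the pair activates genes that carry an E-box in their promoter, among them the Per, Cry and Nr1d genes. The Per and Cry proteins enter the nucleus and repress that pair. Nr1d1 and Nr1d2 (Rev-erb alpha and beta) are nuclear receptors that repress Arntl, Npas2 and Clock through the response element of the Ror receptors, and Dbp, Tef and Hlf are output factors that bind D-boxes such as those of the Per genes. As a result Arntl peaks when Per and Nr1d transcripts are low, and liver, heart, kidney and muscle each run such a clock in phase with the animal's daily rhythm of light and feeding.

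The 4 promoter stretches below show matches to the elements named above. They are RefSeq sequences on GRCm38.p6, with the matched motif in capitals. Per1 carries an E-box and a Ror half-site, Per3 carries D-boxes, and Cry1 carries an E-box and an E-box variant, all within 250 bases before the start site. Arntl carries a Ror half-site 32 bases after a start site. For Arntl, Per1 and Per3 the start site used lies inside the gene span listed below and is not its first base on the gene's strand.
Arntl, chr7:113207530-113207559, plus strand: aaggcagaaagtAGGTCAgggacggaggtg
Per1, chr11:69098699-69098948, plus strand: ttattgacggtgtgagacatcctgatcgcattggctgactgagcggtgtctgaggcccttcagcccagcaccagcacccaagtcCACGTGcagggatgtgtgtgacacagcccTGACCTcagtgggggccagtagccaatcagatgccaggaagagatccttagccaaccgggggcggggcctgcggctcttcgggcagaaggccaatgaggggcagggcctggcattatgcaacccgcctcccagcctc
Per3, chr4:151044666-151044915, minus strand: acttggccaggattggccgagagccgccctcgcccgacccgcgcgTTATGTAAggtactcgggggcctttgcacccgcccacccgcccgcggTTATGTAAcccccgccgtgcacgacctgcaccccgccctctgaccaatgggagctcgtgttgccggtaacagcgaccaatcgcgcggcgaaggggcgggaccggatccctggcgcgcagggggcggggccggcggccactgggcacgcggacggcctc
Cry1, chr10:85185055-85185304, minus strand: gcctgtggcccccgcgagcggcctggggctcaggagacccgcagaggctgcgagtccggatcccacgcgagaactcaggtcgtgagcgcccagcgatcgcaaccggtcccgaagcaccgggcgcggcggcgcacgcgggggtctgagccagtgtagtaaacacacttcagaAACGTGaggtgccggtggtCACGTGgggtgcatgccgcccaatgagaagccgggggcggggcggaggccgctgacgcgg
The motifs searched on both strands were CACGTG (E-box), CACGTT (E-box variant, AACGTG on the other strand), AGGTCA (Ror half-site, TGACCT on the other strand) and TTATGTAA (D-box, TTACATAA on the other strand). CACGTG is its own reverse complement, and no matches overlap in the printed stretches. In the order given, they stood in 6.02%, 3.85%, 14% and 0.819% of the 32851 promoters of the same length. These shares are of windows before the start, so they do not cover the Arntl stretch. Of the members, 9 were in the promoter table. In that window Clock (at 1 of its start sites) and Nr1d2 also held AGGTCA, Cry2 and Nr1d1 held CACGTT, and Arntl and Npas2 held none of the motifs. A match describes letters in a window and does not show that a factor binds there.

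Genome positions (GRCm38.p6) of the genes are chr7:113178471-113314126 for Arntl, chr1:39193702-39363240 for Npas2, chr5:76209868-76305603 for Clock, chr11:69095108-69109965 for Per1, chr1:91415977-91459351 for Per2 and chr4:150997018-151044707 for Per3. Cry1 lies at chr10:85131700-85185054, Cry2 at chr2:92403646-92434085, Nr1d1 at chr11:98767932-98775377 and Nr1d2 at chr14:18204056-18239106.

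The labelled tissues carried their own markers. The mean of 6 hepatocyte markers was 13.85 to 14.17 in liver, that of kidney tubule markers 11.47 to 12.75 in kidney, that of muscle fibre markers 12.86 to 13.41 in skeletal muscle, and that of cardiomyocyte markers 10.81 to 14.67 in heart. Hepatocyte markers ran from 6.07 to 11.53 in heart, with highs of 11.13 for WY14643, 11.12 for GW501516, 11.53 for rosiglitazone and 11.5 for vehicle hearts. In skeletal muscle WY14643 animal 18 of day 4 reached 11.27 in them against a muscle median of 4.82. Kidney tubule markers reached 9.6 in the heart of animal 18, against a heart median of 4.14. In skeletal muscle of vehicle animal 87 of day 15 they reached 7.6, against a median of 2.49. Adipocyte markers were 11.02 in the heart of rosiglitazone animal 36 of day 4, against a heart median of 6.19. Neutrophil markers were highest in WY14643 animal 17 of day 4, at 11.09 in liver and 13.04 in heart. Against the median array of the tissue, the arrays that correlated least were liver of animal 17 (r = 0.9829), heart of rosiglitazone animal 36 (0.9588), kidney of GW501516 animal 66 (0.9298) and skeletal muscle of animal 18 (0.9657). Animal 37, a rosiglitazone mouse of day 4, stood apart in the clock genes themselves and is described further on. Results were therefore also computed without these 5 animals, a choice made after the data were seen. In bulk tissue, fewer cells of a type and less RNA per cell cannot be told apart.

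The vehicle mice alone differed between days. In vehicle liver Arntl had a lowest, median and highest value of 5.07, 5.78 and 6.02 on day 4, of 6.42, 8.20 and 9.27 on day 8, and of 6.11, 7.37 and 8.89 on day 15. No vehicle liver of day 4 reached the level of any vehicle liver of day 8. Day 8 exceeded day 4 by 2.46 (SE 0.33, limma adjusted p = 3.11e-07). Npas2, the partner that can replace Clock, ran over 3.04, 3.75 and 4.16 on day 4, over 4.55, 6.85 and 8.20 on day 8 and over 3.81, 4.97 and 6.81 on day 15. Its day 8 values lay above all of its day 4 values, by 3.01 on average (SE 0.304, adjusted p = 5.7e-11). Per3, a repressor-side gene, went the other way, with 11.18, 11.36 and 11.71 on day 4 against 9.47, 10.25 and 10.80 on day 8, again without overlap.

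The other tissues of the vehicle mice moved the same way. On day 8 against day 4, 3 members were called up and 5 down in liver, beside 9.73% of all genes called, 3 up and 4 down in heart (0.786%), 2 up and 3 down in kidney (0.473%), and 3 up and 2 down in skeletal muscle (0.187%). The activators were up: Arntl by 1.80 in heart, 1.14 in kidney and 1.34 in skeletal muscle, and Npas2 by 1.32, 2.04 and 1.52 in the same tissues. Per2, the repressor, was called down in each tissue, at -1.22 (liver), -1.30 (heart), -0.88 (kidney) and -1.61 (skeletal muscle). Cry1 fell in kidney (-1.21) and had -0.21 in liver, where it was not called. Nr1d1 was called in no tissue (0.34 in liver). The vehicle mean of day 15 lay between those of days 4 and 8 for 7 members in liver, 10 in heart, 8 in kidney and 8 in skeletal muscle, and outside them for Cry1, Cry2 and Nr1d1 in liver, Cry2 and Nr1d2 in kidney and Clock and Per1 in skeletal muscle. On day 15 against day 8, Npas2 fell by 1.42 in liver (adjusted p = 0.0284) while Per1 rose by 0.98, 2 members in a background of 0.0605%, and Per2 rose by 1.03 in skeletal muscle (adjusted p = 0.0197), the 1 gene called there of all 18193 (0.0055%). Heart and kidney had 0 members called between these days by limma, with 4 and 2 at an unadjusted p under 0.05 and backgrounds of 0.077% and 0%. A test over the 3 vehicle days called 8, 7, 5 and 5 members in liver, heart, kidney and skeletal muscle, against 7.42%, 1.14%, 0.676% and 0.0934% of all genes. The labels name nothing but the day that sets these groups of mice apart, so dosing time and any other difference between the days, such as the hour of collection, cannot be told apart. Every comparison of a compound with vehicle on a day uses the same 10 vehicle arrays for the 3 compounds. On each day the animal numbers run in separate blocks for vehicle and each compound. Compound and number order, or anything that follows it, cannot be told apart between these groups.

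**Figure D1:**
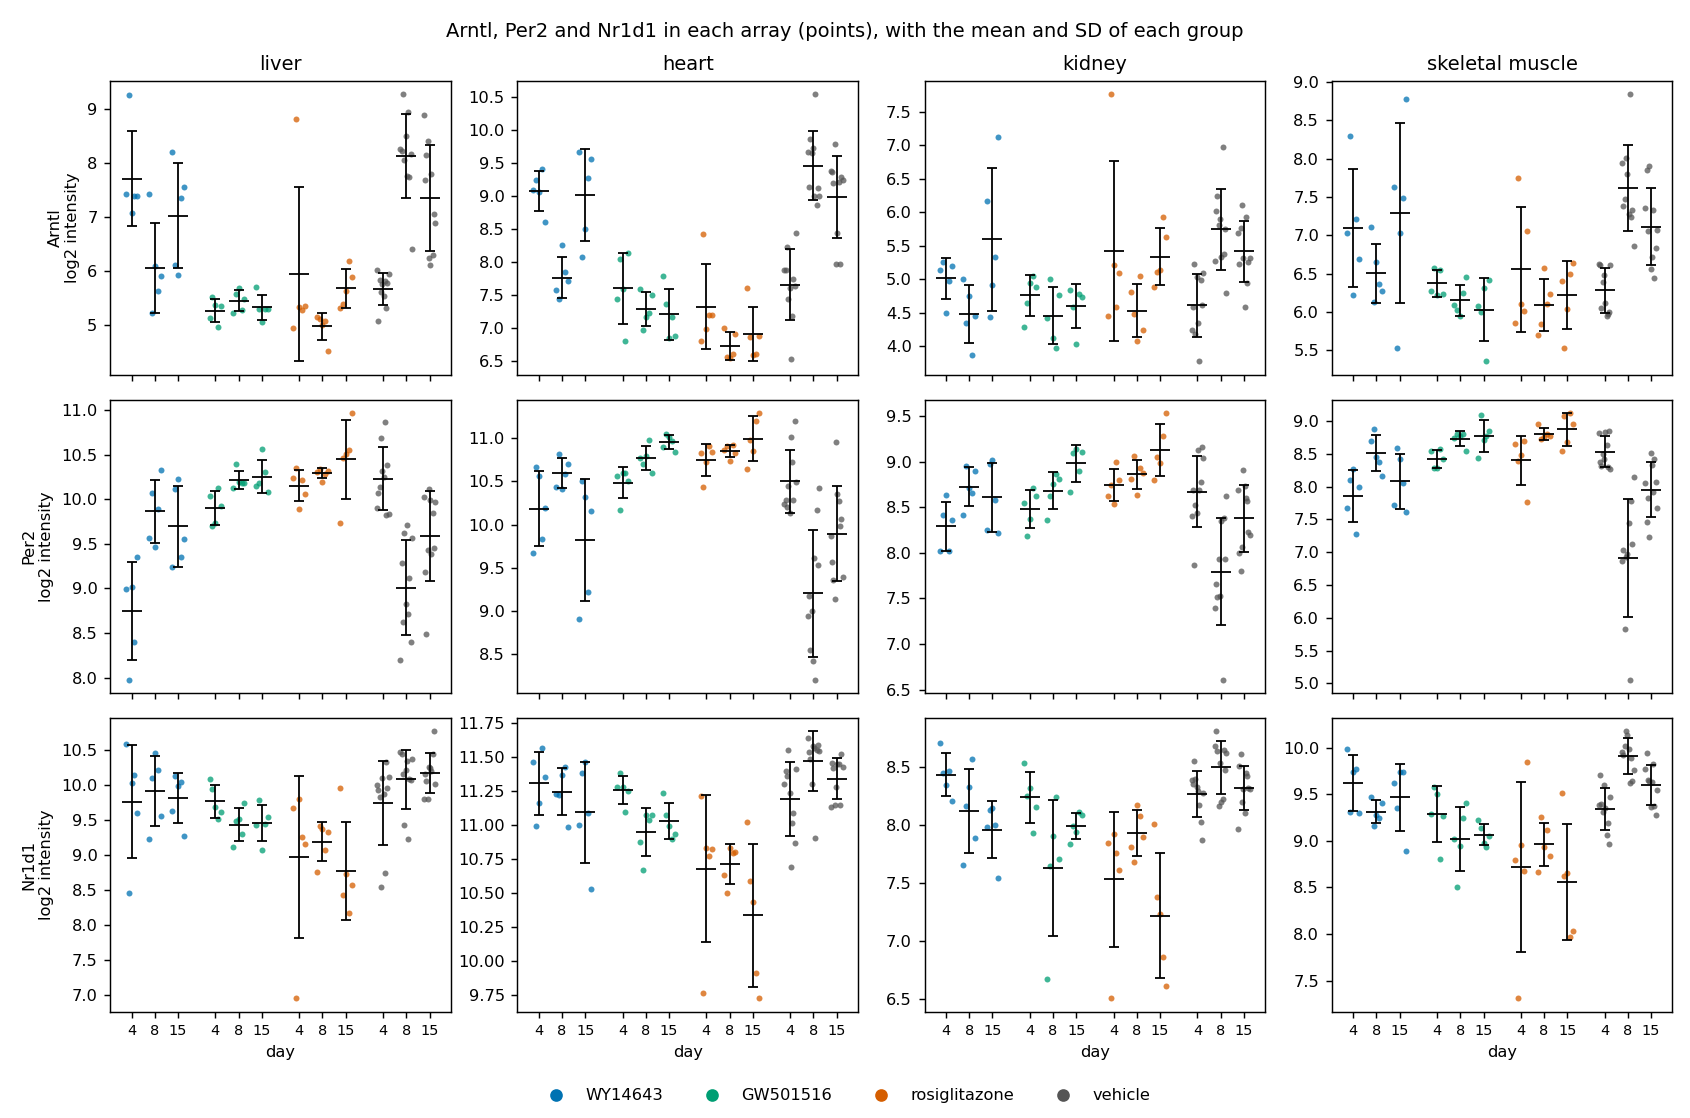
Log2 intensity of Arntl, Per2 and Nr1d1 (rows) in liver, heart, kidney and skeletal muscle (columns). Points are arrays, bars are group means with SD, compounds stand to the left and vehicle to the right, each with days 4, 8 and 15. Vehicle Arntl is lowest on day 4, the GW501516 and rosiglitazone groups of liver and heart stay low on all 3 days apart from animal 37, and vehicle Per2 is lowest on day 8.

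Among the activators, Arntl fell in liver with GW501516 and rosiglitazone. Here and below, rose and fell with a compound mean higher and lower than vehicle of the same days. On day 8 it had 7.43, 5.23, 6.09, 5.64 and 5.92 in WY14643 livers, 5.23, 5.57, 5.69, 5.28 and 5.49 in GW501516 livers and 5.15, 5.11, 5.01, 5.08 and 4.52 in rosiglitazone livers, against a lowest, median and highest vehicle value of 6.42, 8.20 and 9.27. All GW501516 and rosiglitazone livers were below every vehicle liver of that day, and 1 WY14643 liver fell inside the vehicle range. The differences were -2.07, -2.68 and -3.16, all called. On day 15 the values were 8.21, 6.11, 5.94, 7.35 and 7.55 in WY14643 livers, 5.70, 5.31, 5.06, 5.29 and 5.29 in GW501516 livers and 5.31, 5.40, 5.64, 6.18 and 5.89 in rosiglitazone livers, against 6.11, 7.37 and 8.89 in vehicle. GW501516 lay wholly below vehicle (-2.02), rosiglitazone overlapped it by 1 liver (-1.67), and WY14643 lay mostly inside it (-0.33, not called).

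Day 4 differed from both. Arntl had 7.42, 9.27, 7.08, 7.40 and 7.39 in WY14643 livers, 5.14, 5.51, 5.38, 4.97 and 5.35 in GW501516 livers and 4.96, 8.82, 5.34, 5.27 and 5.35 in rosiglitazone livers, against 5.07, 5.78 and 6.02 in vehicle. Every WY14643 liver was above every vehicle liver, so the WY14643 difference was 2.04 on day 4 and -2.07 on day 8. The GW501516 and rosiglitazone livers sat at the vehicle level (-0.40 and 0.28, not called), except for the 8.82 of animal 37, without which rosiglitazone gave -0.44, not called. Set in order, the 12 liver group means of Arntl began with rosiglitazone day 8 (4.97 ± 0.26, SD), then the GW501516 groups of days 4, 15 and 8 (5.27 ± 0.21, 5.33 ± 0.23, 5.45 ± 0.19) and vehicle day 4 (5.67 ± 0.29). Rosiglitazone of days 15 and 4 (5.68 ± 0.36, 5.95 ± 1.62) and WY14643 of days 8 and 15 (6.06 ± 0.83, 7.03 ± 0.98) came next, and vehicle day 15 (7.36 ± 0.98), WY14643 day 4 (7.71 ± 0.88) and vehicle day 8 (8.13 ± 0.77) last. The steps between neighbours from GW501516 day 4 to rosiglitazone day 15, and among the last 4, were about as small as these SDs.

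Averaged over the 3 days, Arntl of liver differed from vehicle by -0.12 with WY14643 (SE 0.233, 95% interval -0.58 to 0.35, adjusted p = 0.832), by -1.70 with GW501516 (SE 0.233, adjusted p = 6.42e-08) and by -1.52 with rosiglitazone (adjusted p = 9.15e-07). In heart it differed by -0.08, -1.33 (SE 0.155, adjusted p = 5.13e-09) and -1.72 (adjusted p = 1.01e-12) with the compounds in that order. Heart on day 8 had 7.57, 7.44, 8.25, 7.84 and 7.70 with WY14643, 7.58, 6.96, 7.16, 7.22 and 7.5 with GW501516 and 7.0, 6.55, 6.54, 6.60 and 6.90 with rosiglitazone, against 8.86, 9.39 and 10.54 in vehicle. No treated heart reached a vehicle heart. In skeletal muscle GW501516 gave -0.82 (SE 0.171, adjusted p = 0.0029) and rosiglitazone -0.72 (adjusted p = 0.0116), and in kidney GW501516 gave -0.65 (adjusted p = 0.0199) and rosiglitazone -0.16 (adjusted p = 0.969), or -0.35 without animal 37 (adjusted p = 0.4565). With the mean of both Arntl probe sets in place of the brighter, these calls in skeletal muscle and kidney ended, at -0.39, -0.31 and -0.32 (adjusted p = 0.1345, 0.2583 and 0.06763). Over days 4 and 15 alone the calls ended for rosiglitazone in liver (-0.70) and skeletal muscle (-0.31) and for GW501516 in kidney (-0.33) and skeletal muscle (-0.50).

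Npas2 fell over the 3 days with GW501516 and rosiglitazone in liver and kidney, whereas with WY14643 in liver it rose on day 4 (1.89, adjusted p = 0.00042) and fell on day 8. On day 8 it read 3.74, 3.62, 3.57, 3.89 and 3.50 in WY14643 livers, 3.24, 3.80, 3.6, 3.38 and 3.68 in GW501516 livers and 3.87, 4.01, 2.90, 3.40 and 3.40 in rosiglitazone livers, against 4.55, 6.85 and 8.20 in vehicle. The treated livers were all below the vehicle range and differed by -3.03, -3.15 and -3.18. Npas2 is dim in liver, at percentile 20.9 of mean intensity over all genes, and in skeletal muscle, at 32.7. Arntl of kidney is also dim, at 37.1. The mean over days was -0.79 with WY14643 (adjusted p = 0.00768), -1.63 with GW501516 (2.37e-08) and -1.55 with rosiglitazone (8.18e-08). Over days 4 and 15 alone the WY14643 difference of liver was 0.33, of opposite sign and not called, and the calls ended for rosiglitazone in liver (-0.73) and kidney (-0.16) and for GW501516 in kidney (-0.77). In kidney GW501516 gave -1.30 (SE 0.193, adjusted p = 1.64e-06) and rosiglitazone -0.92 (adjusted p = 0.00243), whereas in heart -0.43 and -0.42 and in skeletal muscle -0.55 and -0.57 did not pass.

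Clock, which is the least rhythmic of the activators in most tissues, moved less but in the same direction. Its mean over days was -0.55 with GW501516 and -0.50 with rosiglitazone in liver, -0.20 and -0.30 in heart, and -0.34 and -0.36 in skeletal muscle, all called. In kidney GW501516 gave -0.32, called, and rosiglitazone -0.18, not called. The GW501516 calls of Clock in heart (-0.11) and kidney (-0.19) ended over days 4 and 15 alone. On day 8 the livers had 9.45, 9.41, 9.69, 9.37 and 9.90 with GW501516 and 9.74, 9.20, 9.48, 9.28 and 9.74 with rosiglitazone, against 10.14, 10.33 and 10.61 in vehicle, with no overlap.

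**Figure D2:**
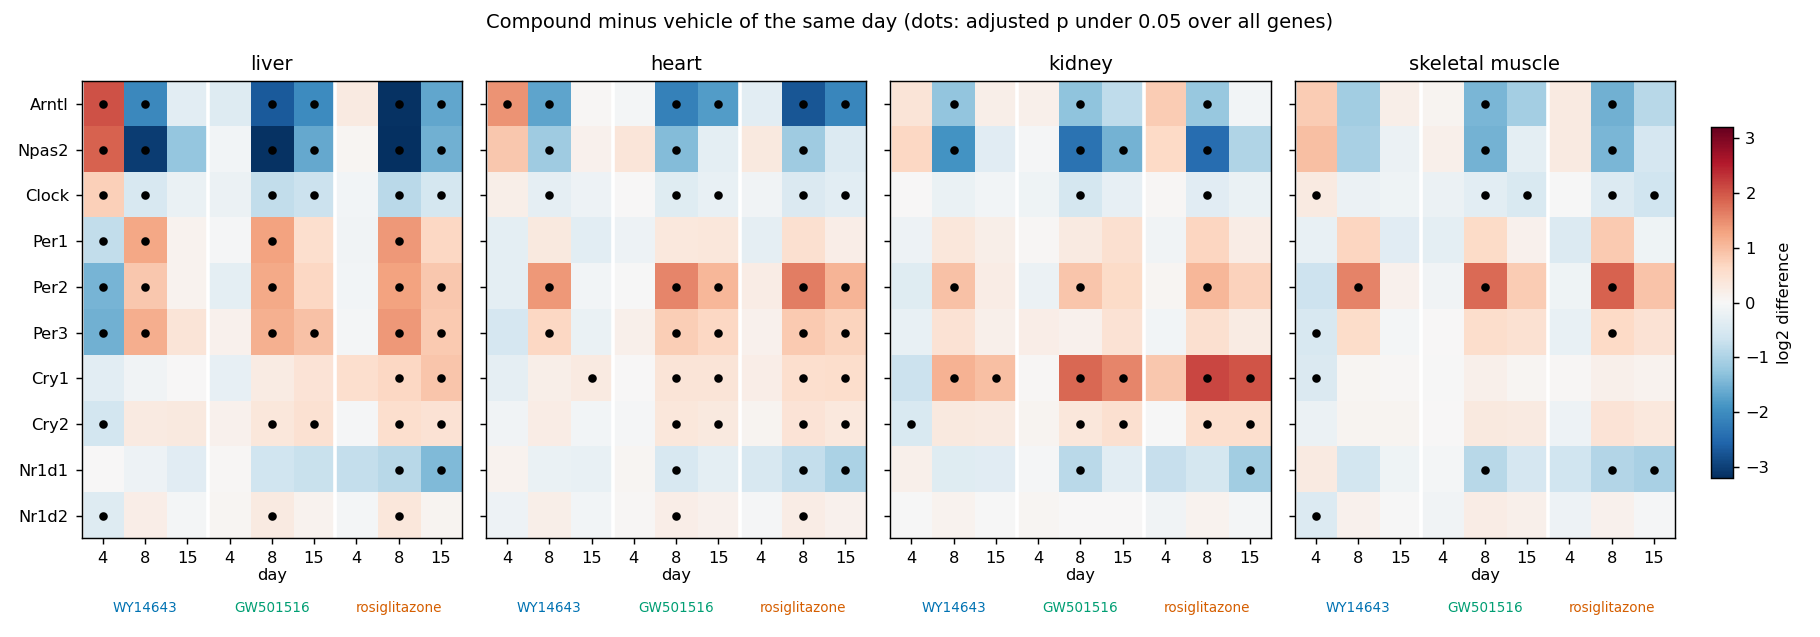
Log2 difference between a compound and vehicle of the same day for the 10 clock genes (rows), by compound and day (columns) in the 4 tissues. Red is higher and blue is lower with the compound, and dots mark an adjusted p under 0.05 over all genes. On day 8 Arntl, Npas2 and Clock are blue and Per1, Per2 and Per3 red for all 3 compounds in each tissue, and on day 4 all dots are in the WY14643 columns.

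Among the Per genes, repressors of the Arntl and Clock pair, Per2 rose over the 3 days with GW501516 and rosiglitazone in all 4 tissues, Per3 in liver and heart with both and in skeletal muscle with GW501516, and Per1 in liver alone. No Per gene was called over the 3 days with WY14643. Per2 of skeletal muscle on day 8 had 8.69, 8.88, 8.44, 8.38 and 8.16 with WY14643, 8.73, 8.80, 8.78, 8.80 and 8.54 with GW501516 and 8.95, 8.72, 8.75, 8.80 and 8.77 with rosiglitazone, against 5.06, 7.0 and 8.15 in vehicle. All 15 treated muscles were above all vehicle muscles, with differences of 1.59, 1.81 and 1.88. The spread was small in treated and wide in vehicle muscle, whose SD was 0.90. Heart gave the same picture on day 8, with 10.43, 10.82, 10.42, 10.59 and 10.71 for WY14643, 10.78, 10.70, 10.80, 10.98 and 10.59 for GW501516 and 10.86, 10.91, 10.74, 10.92 and 10.82 for rosiglitazone, against 8.20, 9.08 and 10.42 for vehicle. All GW501516 and rosiglitazone hearts were above vehicle, and 1 WY14643 heart met the highest vehicle heart. Over the 3 days Per2 was higher with GW501516 by 0.52 in liver, 0.87 in heart, 0.44 in kidney and 0.84 in skeletal muscle, and with rosiglitazone by 0.69, 1.0, 0.63 and 0.89, all called. Over days 4 and 15 alone the Per2 calls with GW501516 ended in all 4 tissues, at 0.17, 0.52, 0.21 and 0.36, and those with rosiglitazone ended in liver (0.39), kidney (0.41) and skeletal muscle (0.40). WY14643 gave -0.17, 0.33, 0.26 and 0.35 over the 3 days in the same tissues, none called.

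Per3 of liver on day 4 had 10.55, 7.84, 10.45, 10.02 and 10.48 with WY14643 against 11.18, 11.36 and 11.71 with vehicle, so the WY14643 livers were all lower (-1.55). On day 8 it had 11.29, 11.53, 11.42, 11.19 and 11.41 with WY14643, 11.43, 11.30, 11.02, 11.53 and 11.43 with GW501516 and 11.40, 11.90, 11.46, 11.64 and 11.46 with rosiglitazone, against 9.47, 10.25 and 10.80 with vehicle, so treated livers were all higher. The 7.84 was from animal 17, the liver with the highest neutrophil markers. Averaged over days, Per3 rose with GW501516 by 0.74 in liver, 0.54 in heart and 0.36 in skeletal muscle and with rosiglitazone by 0.72 in liver and 0.55 in heart, and it had 0.27 and 0.22 in kidney and, with rosiglitazone, 0.29 in skeletal muscle, not called. With the mean of all Per3 probe sets the GW501516 call in skeletal muscle ended, at 0.23 (adjusted p = 0.1766). It also ended over days 4 and 15 alone, at 0.26, as did the rosiglitazone call in liver, at 0.40. Per1, the Per gene that also responds fast to stimuli such as glucocorticoids, rose in liver, by 0.60 with GW501516 (adjusted p = 0.0012) and 0.65 with rosiglitazone (adjusted p = 0.000359). Both calls ended over days 4 and 15 alone, at 0.25 (adjusted p = 0.443) and 0.28 (adjusted p = 0.2974). Heart had 0.18 and 0.14, kidney 0.28 and 0.26, and skeletal muscle 0.14 and 0.08, not called. The effect on Per1 was larger in liver than in heart by 0.42 with GW501516 and 0.51 with rosiglitazone, both past the threshold.

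Cry1, a repressor whose transcript peaks later than the Per genes, spanned 2.33 over its 12 group means in kidney, against 0.95 in liver, 0.66 in heart and 0.59 in skeletal muscle. On day 8 the kidneys had 6.37, 6.98, 6.37, 6.27 and 6.81 with WY14643, 7.30, 7.48, 7.30, 7.08 and 7.20 with GW501516 and 7.69, 8.33, 7.23, 7.45 and 7.22 with rosiglitazone, against 4.87, 5.44 and 5.93 with vehicle. On day 15 they had 7.06, 7.32, 7.44, 7.27 and 7.52 with GW501516 and 7.12, 7.75, 7.75, 8.19 and 8.09 with rosiglitazone, against 4.87, 5.75 and 6.31 with vehicle. All 15 treated kidneys of day 8 lay above vehicle, and so did all GW501516 and rosiglitazone kidneys of day 15. The mean over days was 0.46 with WY14643 (SE 0.12, adjusted p = 0.0221), 1.14 with GW501516 (adjusted p = 4.4e-11) and 1.67 with rosiglitazone (adjusted p = 2.41e-17). The WY14643 call ended when animal 20 or animal 57 was left out, at 0.44 without the 5 animals (adjusted p = 0.05284) and at 0.14 over days 4 and 15 alone. In liver Cry1 rose with rosiglitazone by 0.69 (adjusted p = 1.03e-05) and had 0.14 with GW501516, and in heart it rose by 0.28 with GW501516 and by 0.44 with rosiglitazone, while skeletal muscle had 0.08 and 0.10, not called. Cry2, its less rhythmic relative, rose by 0.33 and 0.32 in liver, 0.21 and 0.29 in heart and 0.32 and 0.36 in kidney with GW501516 and rosiglitazone, and had 0.20 and 0.20 in skeletal muscle, not called. Over days 4 and 15 alone the Cry1 call of heart with GW501516 ended (0.21), and so did the Cry2 calls of liver (0.22) and kidney (0.26) with rosiglitazone and of heart with GW501516 (0.14).

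Nr1d1, which represses Arntl, fell with rosiglitazone in all 4 tissues. Liver had 9.66, 6.95, 9.79, 9.25 and 9.16 on day 4 with rosiglitazone against 8.54, 9.93 and 10.31 with vehicle, then 8.76, 9.41, 9.37, 9.07 and 9.33 on day 8 against 9.22, 10.18 and 10.46, and 9.96, 8.42, 8.72, 8.17 and 8.57 on day 15 against 9.79, 10.17 and 10.76. The groups overlapped on days 4 and 8, and on day 15 only replicate 1 of rosiglitazone lay in the vehicle range. Kidney on day 15 had 8.01, 7.38, 7.23, 6.86 and 6.61 with rosiglitazone against 7.96, 8.31 and 8.61 with vehicle, again with replicate 1 alone inside the vehicle range. Mean differences over the days were -1.02 in liver (adjusted p = 2.58e-06), -0.76 in heart (adjusted p = 9.53e-10), -0.80 in kidney and -0.87 in skeletal muscle (adjusted p = 1.79e-07). GW501516 gave -0.45 in liver (adjusted p = 0.0578) and -0.26 in heart, not called, -0.41 in kidney and -0.49 in skeletal muscle, called. Nr1d2 moved little: with GW501516 it rose by 0.16 in liver and 0.14 in heart, and with rosiglitazone by 0.12 in heart. The liver call of Nr1d2 ended when animal 30 or animal 68 was left out. Over days 4 and 15 alone the 3 Nr1d2 calls ended, and so did the Nr1d1 calls with GW501516 in kidney (-0.18) and skeletal muscle (-0.30).

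Counted over the 3-day mean, GW501516 had 5 members up and 3 down in liver (13.9% of all genes called). It had 5 up and 2 down in heart (4.17%), 3 up and 4 down in kidney (6.79%) and 2 up and 3 down in skeletal muscle (0.857%). Rosiglitazone had 5 up and 4 down in liver (16.2%), 5 up and 3 down in heart (7.51%), 3 up and 2 down in kidney (1.52%) and 1 up and 3 down in skeletal muscle (1.65%). WY14643 had 0 up and 1 down in liver (11.2%) and 1 up in kidney (1.74%). In heart and skeletal muscle limma called 0 members with WY14643 (1.44% and 0.104%), with 2 in each at an unadjusted p under 0.05. The median absolute difference of the members was 0.534 with GW501516 in liver beside 0.0663 over all genes, and 0.690 beside 0.0736 with rosiglitazone. In skeletal muscle it was 0.348 beside 0.0584 with GW501516 and 0.323 beside 0.0643 with rosiglitazone.

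By day, WY14643 called 3 members up and 5 down in liver on day 4 (6.45% of all genes), 3 up and 3 down on day 8 (6.32%), and 0 on day 15 (2.86%, 2 members at an unadjusted p under 0.05). On day 4 Arntl, Npas2 and Clock were up and Per1, Per2, Per3, Cry2 and Nr1d2 were down, and on day 8 the first 3 were down and Per1, Per2 and Per3 up. GW501516 and rosiglitazone called 0 members on day 4 in each tissue, against backgrounds of 1.35% and 1.23% for liver, 0.126% and 0.22% for heart, 0.17% and 0% for kidney, and 0.0165% and 0% for skeletal muscle. At an unadjusted p under 0.05 the liver had 0 and 2 members, the heart 0 and 2, the kidney 0 and 3 and skeletal muscle 1 and 1. WY14643 on day 4 called 1 up in heart (0.253%), 1 down in kidney (0.275%) and, in skeletal muscle, 1 up and 3 down (3.34%). On day 8 in liver GW501516 called 5 up and 3 down (8.83%) and rosiglitazone 6 up and 4 down (12.8%), so all 10 members differed there between rosiglitazone and vehicle. WY14643, GW501516 and rosiglitazone on day 8 called 2, 5 and 5 up and 3, 4 and 4 down in heart (0.434%, 1.63% and 4.18%). They called 2, 3 and 3 up and 2, 4 and 3 down in kidney (0.506%, 9.36% and 0.753%). Skeletal muscle had 1, 1 and 2 up and 0, 4 and 4 down on that day (0.0385%, 0.39% and 0.852%). On day 15 GW501516 called 2 up and 3 down in liver (4.42%) and rosiglitazone 4 and 4 (5.34%). Heart then had 1, 4 and 4 up and 0, 2 and 3 down with the 3 compounds (3.37%, 0.764% and 1.09%). Kidney had 1, 2 and 2 up and 0, 1 and 1 down (0.544%, 1.33% and 0.132%). Skeletal muscle had 0 up in each, and 0, 1 and 2 down (0.0165%, 0.066% and 0.242%), with 0, 6 and 6 members at an unadjusted p under 0.05. The difference between days was itself tested. The WY14643 effect differed between days for 8 members in liver (3.4% of all genes), 7 in heart (0.731%), 3 in kidney (0.033%) and 3 in skeletal muscle (0.121%). In kidney these were Npas2, Cry1 and Cry2, among 6 genes called in all. For GW501516 the numbers were 2 (Npas2 and Per2; 0.489%), 1 (Arntl; 0.044%), 1 (Cry1; 0.0055%) and 1 (Per2; 0.0055%), and Cry1 in kidney and Per2 in skeletal muscle were the 1 gene of the whole table called there. The Per2 call ended with the mean of all probe sets, without the 5 animals, and when animal 27, 28, 30, 66, 67 or 69 was left out, and the Arntl call of heart ended with the mean of all probe sets. For rosiglitazone they were 5 (1.85%), 1 (Arntl; 0.22%), 1 (Npas2; 0.0055%) and 2 (Clock and Per2; 0.0275%). Without day 8 the calls against vehicle shrank, to 5 members for GW501516 and 3 for rosiglitazone in liver and to 1 and 2 in skeletal muscle, while WY14643 in liver had 4. The share of all genes called without day 8 is not given here, so whether all genes shrank alike cannot be said.

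The compounds were set against each other over 12 pairs of compound and tissue, at 1 dose and over the same days. WY14643 minus GW501516 in liver called 3 members up and 4 down (4.55% of all genes): Arntl 1.58, Npas2 0.84 and Clock 0.56 were higher and Per2 -0.69, Per3 -0.73, Cry2 -0.33 and Nr1d2 -0.25 were lower with WY14643. WY14643 minus rosiglitazone in liver called all 10, 4 up and 6 down (17.6%), with Arntl at 1.40 (SE 0.269, adjusted p = 6.7e-05), Nr1d1 at 0.85 and Cry1 at -0.84. In heart these 2 differences called 6 (3.03%) and 8 members (6.12%), in kidney 3 (1.34%) and 3 (1.95%), and in skeletal muscle 2 (0.572%) and 2 (0.0385%). GW501516 minus rosiglitazone called 1 member in liver, Cry1 at -0.55 (SE 0.138, adjusted p = 0.0115; 3.59%), 1 in heart, Nr1d1 at 0.50 (SE 0.0985, adjusted p = 0.00983; 0.044%, 8 genes), 1 in kidney, Cry1 at -0.53 (adjusted p = 0.0307; 1.12%), and 0 in skeletal muscle (0.066%, 1 member at an unadjusted p under 0.05). Arntl of liver differed by -0.18 between them, with a 95% interval of -0.72 to 0.35. These p-values are adjusted over the genes of a comparison and not over the 12 pairs.

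The effect of a compound was also compared between tissues of the same animals. With rosiglitazone the Arntl difference from vehicle was more negative in liver than in kidney (difference of differences -1.36), and that of Cry1 was less positive (-0.98). Between these tissues 6 members differed (7.22% of all genes). With GW501516, 4 differed between liver and kidney (8.18%), Arntl by -1.05 and Cry1 by -1.0, and with WY14643 2 differed (4.69%), Cry1 by -0.61 and Per2 by -0.43. Between liver and heart Npas2 differed with each compound, by -0.74 with WY14643, -1.19 with GW501516 and -1.12 with rosiglitazone, among 2, 3 and 2 members called (6.52%, 10.2% and 12.5%). Heart and skeletal muscle differed in Arntl (-1.0) and Cry1 (0.35) with rosiglitazone (0.5%), and in 0 members with WY14643 (0.0055%, 1 at an unadjusted p under 0.05) and GW501516 (0.346%, 5 at an unadjusted p under 0.05).

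Around the 10 genes, 15 of a list of 17 other clock and clock output genes were measured. In liver 4 rose and 1 fell with GW501516 (13.9% of all genes called), among them Ciart, a repressor of the Clock and Arntl pair (1.65), Usp2, a deubiquitinase under clock control (1.56), the D-box factor Tef (0.42) and Nfil3, the D-box repressor (-0.38). With rosiglitazone 5 rose and 1 fell (16.2%), with Usp2 at 1.69, Ciart at 1.47, the D-box factor Hlf at 0.57 and Tef at 0.50. With WY14643 in liver 1 of the 15 was called, Ciart (0.76, adjusted p = 0.023), beside 11.2% of all genes. By day, WY14643 in liver called 2 up and 5 down on day 4 (6.45%), 3 up on day 8 (6.32%) and 0 on day 15 (2.86%, 3 at an unadjusted p under 0.05). Usp2 had -1.88 on day 4 and 2.48 on day 8, Ciart -1.27 and 2.40, and Tef -0.78 and 0.67, all called. Heart had 4 up with GW501516 (4.17%), with Ciart at 0.74, Hlf at 0.44, Tef at 0.31 and Usp2 at 0.19, and 4 up and 2 down with rosiglitazone (7.51%), with Hlf at 0.56, Tef at 0.38, the E-box repressor Bhlhe40 at -0.40 and Timeless at -0.21. Kidney had 2 up with GW501516 (6.79%), Ciart at 0.56 and the kinase Csnk1e at 0.26, and 2 up with rosiglitazone (1.52%), Nfil3 at 0.69 and the nuclear receptor Rora at 0.18. Limma called 0 of the 15 with WY14643 in heart and kidney (2 and 1 at an unadjusted p under 0.05, backgrounds 1.44% and 1.74%) and 0 in skeletal muscle with WY14643, GW501516 and rosiglitazone (3, 4 and 5 at that p, backgrounds 0.104%, 0.857% and 1.65%). Between vehicle days 8 and 4 limma called 1 up and 4 down in liver (9.73%), with Usp2 at -2.53, Ciart at -2.46, Dbp at -0.86 and Tef at -0.81, and 5 down in heart (0.786%), with Ciart at -1.57, Hlf at -0.60, Dbp at -0.56 and Tef at -0.56.

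Relations between members were read within groups, where treatment and day are held fixed. The hour of collection was not given, so these relations do not give a phase. For each tissue the deviation of each array from its group mean was correlated between members, over 75 arrays and 45 pairs, with p from 100000 permutations adjusted over the 180 relations (the smallest p they can give is 1e-05). Liver had 17 positive and 19 negative pairs past the threshold, heart 14 and 9, kidney 16 and 13, and skeletal muscle 7 and 8, and r ran from -0.785 to 0.763. Without animal 37, described further on, liver had 14 positive and 16 negative, heart 13 and 9, kidney 16 and 11, and skeletal muscle 8 and 7. Of the 45 pairs, 29 had the same sign in the 4 tissues, 15 positive and 14 negative. The arrays of a tissue come from different animals, and members read on the same array share its RNA and labelling. The share of all gene pairs past the threshold is not given here, so these counts have no background beside them.

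Arntl and Per3 went opposite ways in each tissue, at r = -0.758 in liver (rho -0.763, and -0.739 without the 2 arrays farthest in Arntl), -0.712 in heart (rho -0.683, and -0.706), -0.519 in kidney (rho -0.533, and -0.422) and -0.785 in skeletal muscle (rho -0.692, and -0.741), each with a permutation p of 5e-05 or less (adjusted 0.000243 or less). Over the 30 vehicle arrays alone r was -0.808, -0.747, -0.628 and -0.723. Arntl and Npas2 went together, at 0.703, 0.430, 0.748 and 0.591 in the same order of tissues (rho 0.619, 0.356, 0.651 and 0.590), all past the threshold. The second Npas2 probe set had r of only 0.18, 0.45, 0.14 and -0.09 with the one used, in that order. For the second, dimmer Arntl probe set these were 0.47, 0.28, 0.29 and 0.55. Pair relations of the second probe sets alone are not given here. Per2 and Per3 went together at 0.508, 0.763, 0.531 and 0.570, and Per3 and Nr1d2 at 0.747, 0.757, 0.634 and 0.378. The second Nr1d2 probe set had r of 0.47, 0.55, 0.49 and -0.24 with the one used. Npas2 was negatively related to Per1, Per2 and Per3 in each tissue past the threshold, except that without animal 37 Npas2 and Per1 of skeletal muscle had r = -0.30 and did not pass (adjusted permutation p = 0.0763). Neutrophil markers in liver had r of 0.409 with Arntl, -0.427 with Per2, -0.528 with Per3, -0.462 with Cry2 and -0.595 with Nr1d2 over the same deviations, and in kidney 0.427 with Arntl. Muscle fibre markers in skeletal muscle had 0.454 with Cry1 and 0.529 with Nr1d2, and adipocyte markers in skeletal muscle, which ran from 6.43 to 11.57, had -0.404 with Arntl and -0.527 with Cry1. Kidney tubule markers in kidney had 0.492 with Clock, 0.536 with Per3 and 0.544 with Nr1d2. The other values of these marker lists lay between -0.4 and 0.4. The part of these in the pair relations was not tested. Animal 17 had the highest neutrophil markers in liver (11.09, median 6.82) and kidney (8.66, median 4.88). It was also far from its group in Arntl and Per3 of liver. Animal 66 had the lowest kidney tubule markers in kidney (11.47, median 12.5) and was far from its group there in Clock, Per3 and Nr1d2. For the marker relations r without these animals, rho and p are not given here.

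**Figure D3:**
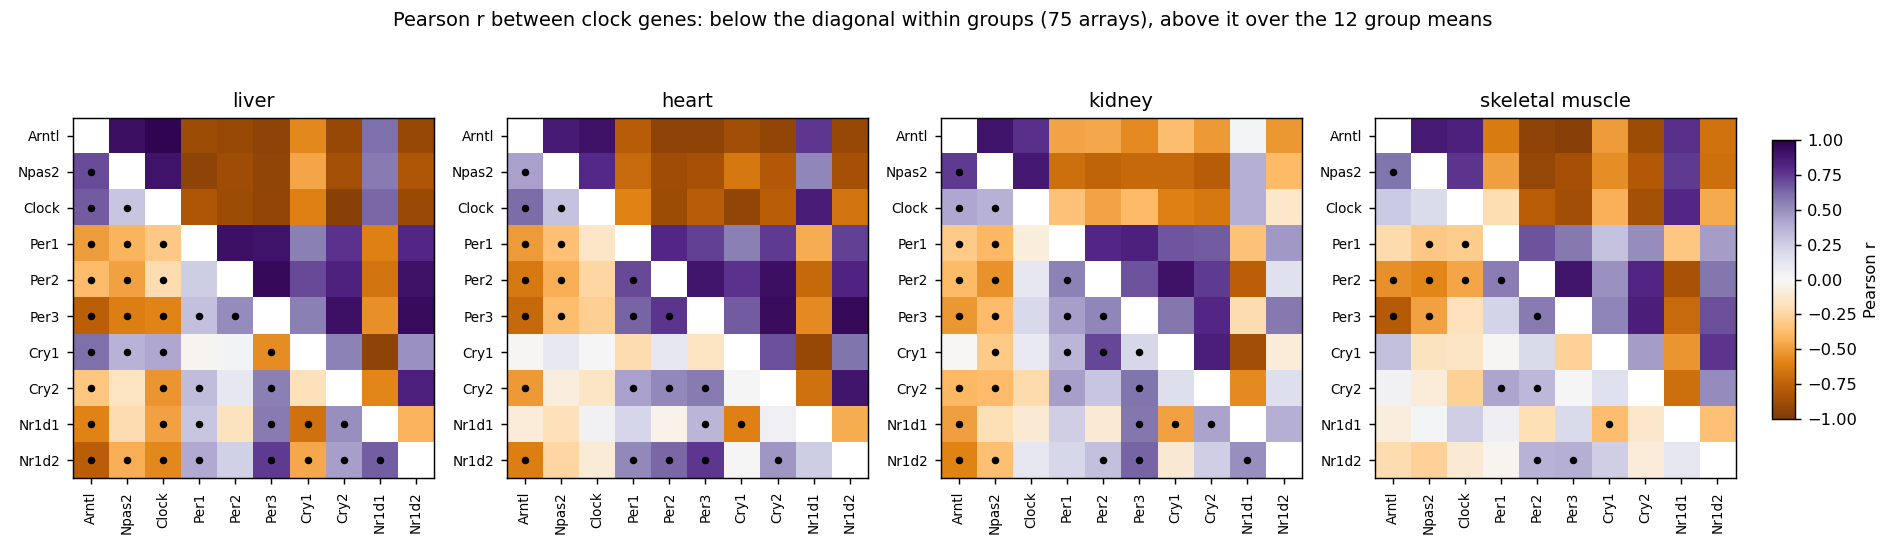
Pearson r between members within groups, over 75 arrays of a tissue (below the diagonal, with dots where the adjusted p is under 0.05), and over the 12 group means (above it). Purple is positive and orange is negative; the Arntl and Nr1d1 and the Arntl and Cry1 cells of liver are of opposite colour on the 2 sides.

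The sign within groups and the sign over the 12 group means agreed for 31 pairs in liver and for 35 in each of the other tissues. Arntl with Nr1d1 and with Cry1 were among those that did not in liver. Within groups Arntl and Nr1d1 had r = -0.594 in liver (rho -0.454, -0.477 without the 2 farthest arrays, adjusted permutation p = 0.000206), while over group means it was 0.609. In kidney the within-group r was -0.489 (group means 0.019), and in heart and skeletal muscle it was -0.093 and -0.077, not past the threshold (group means 0.75 and 0.777). Without animal 37 it was -0.434 in liver, 0.063 in heart, -0.324 in kidney and 0.115 in skeletal muscle, and without all 5 animals that stood apart it was -0.345 in liver (adjusted permutation p = 0.00703). Over the 30 vehicle arrays alone it was -0.307 in liver, 0.08 in heart, -0.062 in kidney and 0.436 in skeletal muscle. Arntl and Cry1 had r = 0.607 within liver groups (rho 0.446, 0.482 without the 2 farthest arrays, 0.459 without animal 37) against -0.576 over group means. In heart this pair had -0.013 within groups against -0.86 over group means. Cry1 and Nr1d1 were opposite on both scales, with within-group r of -0.672, -0.606, -0.479 and -0.373 in liver, heart, kidney and skeletal muscle and group-mean r of -0.932, -0.900, -0.867 and -0.530, though in skeletal muscle rho was -0.188, the 30 vehicle arrays gave 0.204, and without animal 37 r was -0.275 and did not pass (adjusted permutation p = 0.0888).

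**Figure D4:**
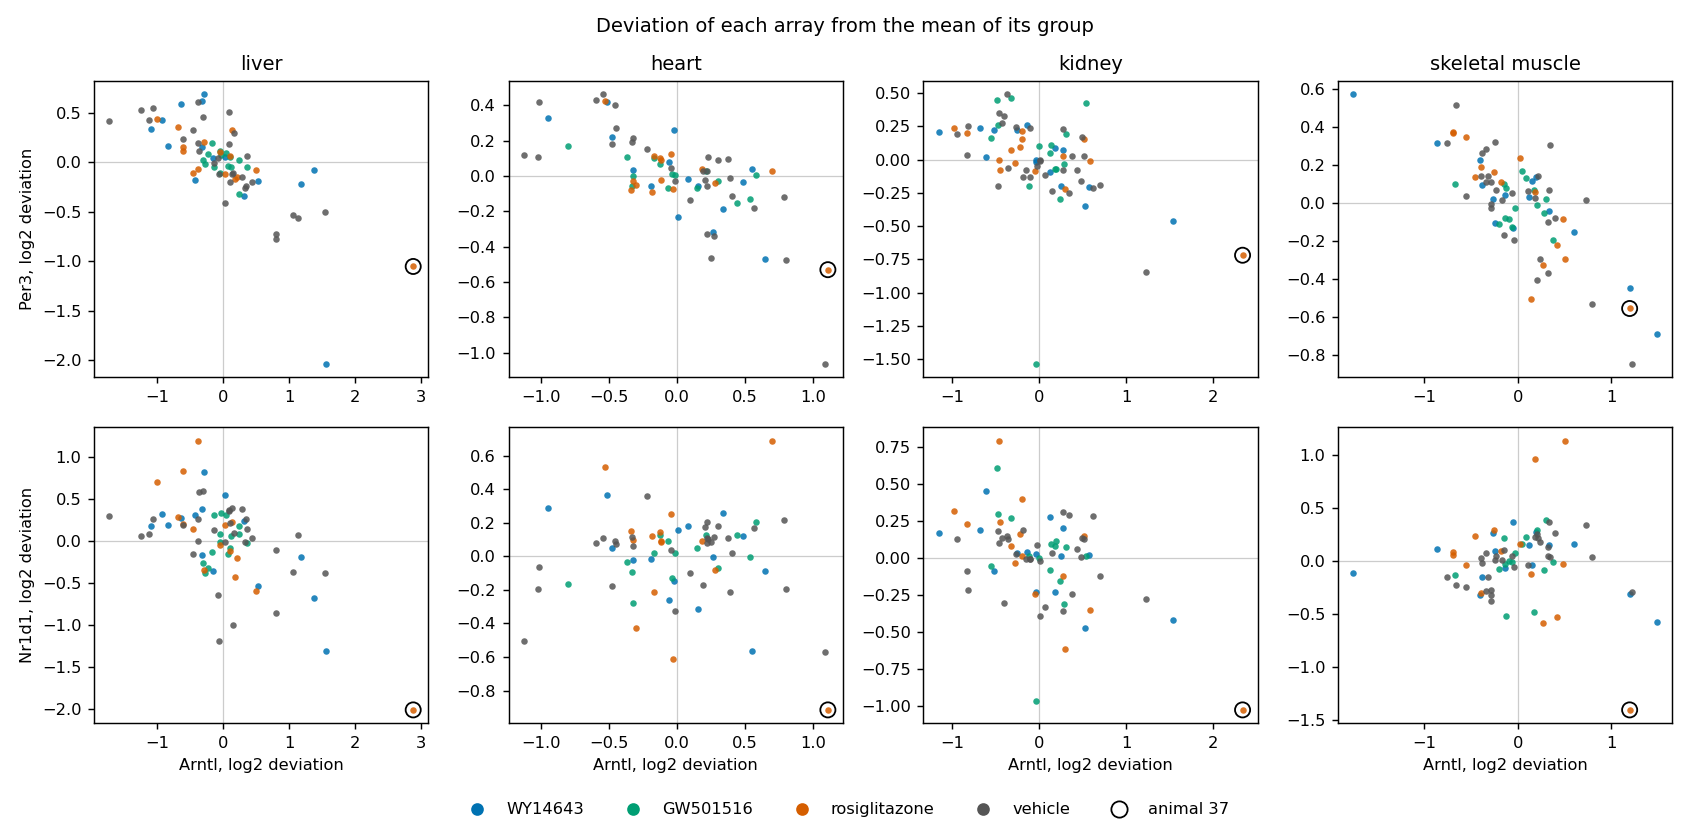
Deviation of each array from its group mean in log2, for Arntl (horizontal) against Per3 (upper row) and Nr1d1 (lower row) in the 4 tissues, coloured by compound or vehicle. The circle marks animal 37, which is at the far right of Arntl in liver and kidney, and the Per3 cloud slopes down in each tissue.

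The tissues of an animal tended to agree. Each member's deviations in one tissue were correlated with those in another over the 75 animals, 60 relations in all. Positive relations past the threshold were found for 9 of 10 members between liver and heart, 10 between liver and kidney, 6 between liver and skeletal muscle, and 9 each between heart and kidney, heart and skeletal muscle, and kidney and skeletal muscle. Without animal 37 the numbers were 8, 8, 6, 9, 8 and 8 in the same order, with Cry1 lost between liver and heart, Cry1 and Nr1d2 between liver and kidney, and Nr1d2 between skeletal muscle and both heart and kidney. The members' median r was 0.485 to 0.561 over the 6 pairs of tissues, beside medians over all genes of 0.035 to 0.095 and 95th percentiles of 0.352 to 0.481. Over all 75 animals, 7, 6, 6, 7, 6 and 6 of the 10 members lay above that percentile, in the same order of pairs. The share of all genes past the permutation threshold is not given here. Per1 agreed best, with r from 0.659 to 0.806 (median 0.75), then Per2 (0.412 to 0.79), Nr1d1 (0.527 to 0.768) and Arntl (0.578 to 0.751), which without animal 37 were 0.645 to 0.789, 0.413 to 0.794, 0.371 to 0.694 and 0.512 to 0.648. The lowest medians were those of Clock (0.203, range 0.095 to 0.509), Cry1 (0.298, 0.252 to 0.543), Cry2 (0.323, -0.081 to 0.431) and Nr1d2 (0.355, 0.213 to 0.518). Without animal 37 these medians were 0.256, 0.243, 0.319 and 0.252 in that order, with 3, 2, 4 and 2 of 6 past the threshold, against 3, 4, 4 and 5 with it. For Per1 in heart and skeletal muscle rho was 0.766 and r was 0.759 without the 2 farthest animals, and over the 30 vehicle animals it was 0.886. For Nr1d1 in liver and skeletal muscle r was 0.558 over all animals, 0.403 without the 2 farthest and 0.090 over the vehicle animals. In 42 of 75 animals the 4 tissues were all on the same side of their group means for Per1, in 38 for Per2, in 31 for Arntl and in 18 for Clock, beside a median of 12 and a 95th percentile of 24 over all genes. Some arrays held markers of other tissues, as given above, and the part of these in the agreement between tissues was not tested.

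**Figure D5:**
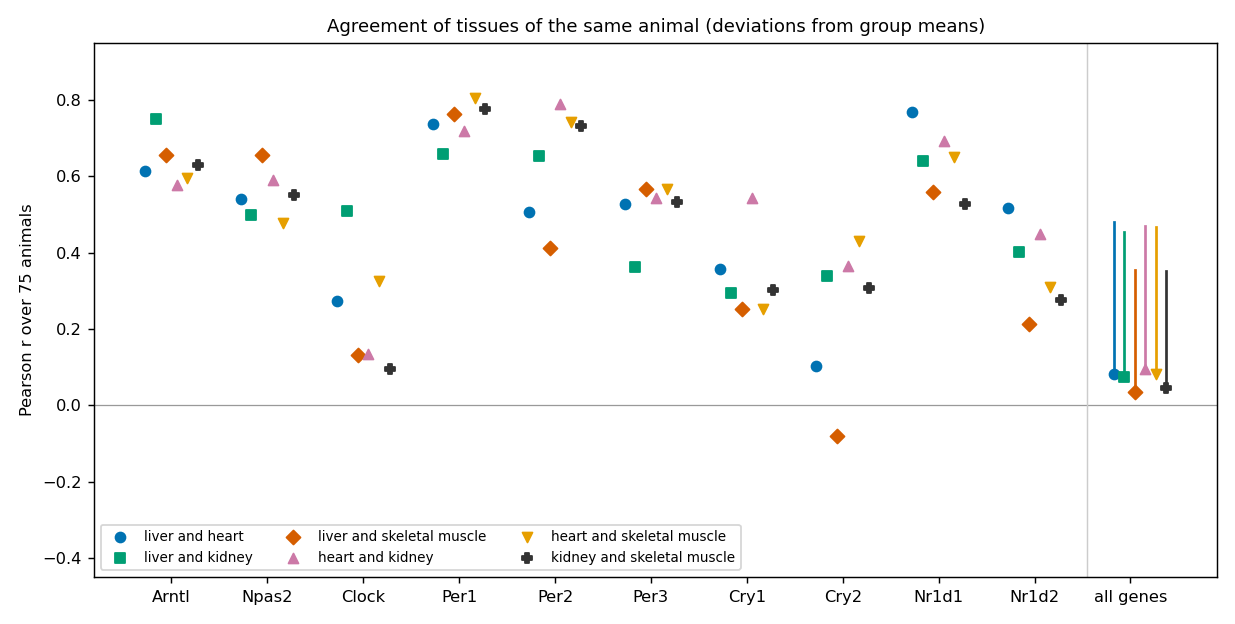
Pearson r over 75 animals between deviations in 2 tissues, for each member and each of the 6 pairs of tissues. At the right the same over all genes, as a median (marker) and a line up to the 95th percentile; Per1 lies between 0.659 and 0.806 and Clock between 0.095 and 0.509.

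Animal 37 held values far from its group in liver, heart and kidney and none so far in skeletal muscle. Its Arntl was 8.82 in liver, 8.43 in heart, 7.76 in kidney and 7.75 in skeletal muscle, the highest of the 5 rosiglitazone mice of day 4 in each, and its Nr1d1 was 6.95, 9.76, 6.50 and 7.31 in liver, heart, kidney and skeletal muscle, the lowest of the group in each. Its liver Cry1 was 10.98 and its liver Per1 7.84 (against 8.45 to 8.66 in the other 4). Kidney Arntl in the group was 4.45, 7.76, 5.22, 4.59 and 5.10. Its arrays held 16 of the 50 values that stood far from the rest of their group, in 3 tissues. Per2 did not go with the other Per genes in this mouse: it was 10.36 in liver, above the 9.90 to 10.23 of the other 4, 10.44 in heart, below their 10.72 to 10.91, and inside their range in kidney and skeletal muscle. Without animal 37 rosiglitazone over the 3 days also called Nr1d2 in liver (0.17), Npas2 in heart (-0.49), Clock in kidney (-0.21) and Per3 in skeletal muscle (0.33), and no member lost its call.

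Among named genes outside the members, at or above the 40th percentile of the tissue, those closest to Arntl in deviations from the group mean over 75 arrays were, as a description, Ypel2 (r = 0.834), Lrfn3 (0.833) and the DNA methyltransferase Dnmt3b (0.81) in liver, Tmem171 (0.663), Rcan1 (0.652) and Leo1 (0.591) in heart, Ypel2 (0.70), the monocarboxylate transporter Slc16a1 (0.664) and Pnrc1 (0.545) in kidney, and Fbxo32 (0.74), Trim63 (0.657) and Tgif1 (0.644) in skeletal muscle. Fbxo32 and Trim63 encode muscle ubiquitin ligases. The most opposite were Ciart (-0.861), Sphk2 (-0.852) and Dbp (-0.826) in liver, Tef (-0.749), Ciart (-0.695) and Sphk2 (-0.691) in heart, Sphk2 (-0.819), Dbp (-0.80) and Ciart (-0.707) in kidney, and Hlf (-0.757), Dbp (-0.692) and Tspan4 (-0.659) in skeletal muscle. Dbp (chr7:45705100-45710203) and Sphk2 (chr7:45709463-45718002) overlap in the RefSeq annotation, and whether their probe sets share signal was not tested.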

How the data were processed

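RNA of 300 tissue samples from 75 mice was read on an Affymetrix mouse array. Per the submitters' processing notes the authors used RMA and Partek, and the deposited values are on the log2 scale, with versions not given in the sources used here, and per the labels' protocols 100 ng of total RNA was amplified with NuGEN reagents. The table holds 45101 probe sets. Of these, 34945 named 1 gene, 932 named several (not used for naming), 9160 named none and 64 were controls, which left 18193 genes, 9010 of them with several probe sets. Array medians were 6.12 to 6.26 in liver, 7.27 to 7.44 in heart, 5.05 to 5.38 in kidney and 4.98 to 5.13 in skeletal muscle, so levels were not compared between tissues. 0 pairs of arrays were identical.

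Each tissue was fitted with limma 3.58.1 in R 4.3.3 (lmFit, eBayes with a trend), with 12 group means and 63 residual degrees of freedom. P-values are two-sided and adjusted by Benjamini-Hochberg over all genes, and called means an adjusted p under 0.05. Compounds were compared with vehicle of the same day, also as the equal mean of the 3 days. The number of arrays, 5 treated and 10 vehicle in a group, limits the precision. On simulated data, for GW501516 minus vehicle over 18193 genes and the mean of 3 days, 1.25-fold and 2-fold changes were found at these rates: liver 90 and 96 percent, heart 80 and 98, kidney 84 and 100, skeletal muscle 68 and 100. The changed genes were drawn at random from all genes, with independent noise at each gene's pooled vehicle SD. These are therefore not the rates for the members. Npas2 of heart, with a median group SD of 0.48, differed by -0.42 with rosiglitazone and was not called. A member that was not called is not shown to be unchanged.

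Correlations used deviations from group means, with permutations within groups and Benjamini-Hochberg over the relations of a family. The animal number in the labels pairs the tissues. Replicate numbers do not pair groups: same-numbered arrays had a median correlation of -0.00492 to 0.0467. All members were named. Of the 15 other clock genes up to 4 called genes with the largest change in a comparison were named, and for likeness to Arntl the 3 highest and 3 lowest r per tissue. Members and lists were chosen with earlier results of these data known. The alternatives tried were a filter on dim genes (under the 40th percentile), the mean of probe sets, array weights, quantile normalization, a replicate block, days 4 and 15 alone, each animal left out, and, chosen after the data were seen, 5 animals left out together and, for the correlations, animal 37 alone.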

Additional observations from a re-analysis of the deposited data

Results flagged for a closer look

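Of 480 sets of group values (10 genes, 12 groups, 4 tissues), 50 held 1 array far from the rest by Dixon's criterion, where chance flags about 1 in 20. They fell on 22 animals. Values below are log2 intensities.

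Animal 37, rosiglitazone day 4 replicate 2, had 16 of them. In liver its values were 8.82 for Arntl, 7.84 for Per1, 10.31 for Per3, 10.98 for Cry1, 6.95 for Nr1d1 and 11.61 for Nr1d2. In heart they were 8.43 for Arntl, 8.41 for Per1 and 12.79 for Nr1d2. In kidney they were 7.76 for Arntl, 9.39 for Clock, 5.98 for Per1, 8.74 for Per3, 7.86 for Cry2, 6.50 for Nr1d1 and 10.08 for Nr1d2. Arntl and Cry1 were the highest and Per1, Per3, Nr1d1 and Nr1d2 the lowest of the group in each tissue of this mouse, while Npas2 was inside the range in liver, Clock in heart and skeletal muscle, Cry2 in skeletal muscle, and Per2 in kidney and skeletal muscle.

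Vehicle replicate 7 of day 8 (animal 47) had 6: in heart 11.92 for Clock, 10.14 for Per3, 10.90 for Nr1d1 and 12.59 for Nr1d2, in kidney 10.38 for Nr1d2 and in skeletal muscle 8.41 for Per3. GW501516 replicate 1 of day 8 (animal 66) had 5, with 3.88 for Npas2, 7.84 for Clock, 7.75 for Per3 and 10.27 for Nr1d2 in kidney, which is the array farthest from the median kidney, and 3.26 for Npas2 in skeletal muscle. WY14643 replicate 2 of day 4 (animal 17) had 4, with 9.27 for Arntl, 10.79 for Clock and 7.84 for Per3 in liver and 9.64 for Cry2 in skeletal muscle.

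The others stood alone or in pairs. With WY14643 they were Npas2 of heart at 7.20 (day 15 replicate 2), Cry1 of heart at 10.44 and Nr1d2 of liver at 11.99 on day 8 (replicates 5 and 1), Nr1d1 of kidney at 7.54 (day 15 replicate 5) and Nr1d2 of skeletal muscle at 10.98 (day 15 replicate 1). With GW501516 they were Clock at 9.19 in liver and 8.50 in skeletal muscle (day 15 replicate 3), Clock of kidney at 8.84 (day 15 replicate 5), Per2 of liver at 10.40 and of skeletal muscle at 8.54 (day 8 replicates 2 and 5), Per2 of heart at 10.17 (day 4 replicate 2) and Cry1 of skeletal muscle at 8.63 (day 4 replicate 4). With rosiglitazone they were Arntl of liver at 4.52 (day 8 replicate 5), Arntl of heart at 7.60 (day 15 replicate 1), Npas2 of liver at 3.27 (day 15 replicate 2) and Cry2 of heart at 10.65 (day 15 replicate 4). In vehicle they were Arntl of liver at 6.42 (day 8 replicate 10), Clock of kidney at 9.30 (day 4 replicate 10) and Per1 of liver at 7.57 (day 4 replicate 1).

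By limma's F test with Benjamini-Hochberg adjustment, compound effects differed between days for these members, with shares of all genes in brackets. With WY14643, GW501516 and rosiglitazone, liver had 8, 2 and 5 (3.4%, 0.489% and 1.85%) and heart 7, 1 and 1 (0.731%, 0.044% and 0.22%). Kidney had 3, 1 and 1 (0.033%, 0.0055% and 0.0055%) and skeletal muscle 3, 1 and 2 (0.121%, 0.0055% and 0.0275%). With the same compounds the effect differed between liver and heart for 2, 3 and 2 members (6.52%, 10.2% and 12.5%). It differed between liver and kidney for 2, 4 and 6 (4.69%, 8.18% and 7.22%). Between heart and skeletal muscle it differed for 2 members with rosiglitazone (0.5%).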

How the results depend on the processing

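Counts are members called of 10, with the reported count in brackets. The cause of each change was not tested, beyond the fewer arrays of a setting that drops some. Shares of all genes called in each setting are not given here, so these counts have no background beside them. Dim genes left out gave 0 for WY14643 minus vehicle in liver (1), 2 for GW501516 minus rosiglitazone in liver and in kidney (1 and 1), 3 for the GW501516 effect over days in heart (1) and 1 for liver minus heart with rosiglitazone (2). The mean of all probe sets gave 3 for GW501516 minus vehicle in skeletal muscle (5), 1 each for WY14643 minus GW501516 and WY14643 minus rosiglitazone there (2 and 2), and over days 1 for WY14643 (3), 0 for GW501516 (1), 1 for rosiglitazone (2) and 3 for vehicle (5) there. It gave 0 for GW501516 over days in heart (1) and 1 each for liver minus heart and liver minus kidney with WY14643 (2 and 2). Array weights gave 2 for GW501516 minus rosiglitazone in liver and in kidney (1 and 1), 4 for WY14643 minus GW501516 in skeletal muscle (2), 1 for heart minus skeletal muscle with GW501516 (0), and over days 4 for GW501516 in liver (2), 5 for GW501516 and 4 for rosiglitazone in heart (1 and 1), 3 for rosiglitazone in kidney (1) and 4 for rosiglitazone in skeletal muscle (2). Quantile normalization gave 2 for GW501516 minus rosiglitazone in kidney (1) and 1 for WY14643 minus GW501516 in skeletal muscle (2).

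With the replicate number as a block, WY14643 minus vehicle had 1 member in heart (0) and 3 in kidney (1), and GW501516 over days in heart had 4 (1); the numbers pair no animals, and 46 other counts stayed within 1.5 times. Over days 4 and 15 alone, the comparisons with vehicle had 4, 5 and 3 members for WY14643, GW501516 and rosiglitazone in liver (1, 8 and 9), 2 and 2 for WY14643 and GW501516 in heart (0 and 7), 0, 2 and 2 for the 3 compounds in kidney (1, 7 and 5), and 1 and 2 for GW501516 and rosiglitazone in skeletal muscle (5 and 4). Liver minus heart then had 0 with WY14643 and 0 with rosiglitazone (2 and 2), liver minus kidney 2 with GW501516 and 2 with rosiglitazone (4 and 6), and heart minus skeletal muscle 1 with rosiglitazone (2). Npas2 of liver with WY14643 reversed, to 0.33, and 30 of 55 called members' differences no longer passed. Without the 5 animals that stood apart, an alternative chosen after the data were seen, GW501516 over days had 4 in liver, 2 in heart and 0 in skeletal muscle (2, 1 and 1), WY14643 had 0 against vehicle in kidney (1), 1 minus GW501516 and 1 over days in skeletal muscle (2 and 3), rosiglitazone had 0 over days in kidney (1) and 4 for liver minus heart (2). Over the 30 vehicle arrays alone, 18 member pairs passed in liver (36) and 16 in kidney (29).

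Leaving out 1 animal at a time gave 1 to 2 for GW501516 minus rosiglitazone in liver and 0 to 2 in kidney, 0 to 1 for WY14643 minus vehicle in kidney (0 without animal 20 or 57) and 1 to 3 for WY14643 minus GW501516 in skeletal muscle. Over days it gave 3 to 8 for rosiglitazone in liver (8 without animal 17, 3 without animal 37, 43 or 79), 1 to 4 and 1 to 2 for GW501516 and rosiglitazone in heart, and 1 to 4, 0 to 1 and 0 to 2 for WY14643, GW501516 and rosiglitazone in skeletal muscle. Between tissues, pairing by replicate number in place of animal number in the 15 animals of 2 groups whose numbers differ moved the members' median r to -0.039, 0.056 and -0.018 (0.507, 0.433 and 0.142) for liver with heart, kidney and skeletal muscle.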

Other observations

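Within groups, Npas2 of liver was lower in mice with higher animal numbers (r = -0.515 over 75 animals, permutation p = 0.00011, adjusted 0.0044 over 40 relations; rho -0.432, adjusted permutation p = 0.0108; r = -0.538 without the 2 animals farthest in number). The other 39 relations of a member with the animal number did not pass on Pearson's r, among them Arntl of liver (r = -0.305, adjusted permutation p = 0.064) and Npas2 of skeletal muscle (r = -0.354, adjusted permutation p = 0.064). On Spearman's rho 4 others passed: Per2 of kidney (rho 0.471, adjusted permutation p = 0.0084) and of heart (0.417, 0.0173), Cry1 of kidney (0.374, 0.0242) and Nr1d1 of skeletal muscle (-0.354, 0.0242). Their r was 0.409, 0.358, 0.352 and -0.223. The labels do not say what the order of the numbers stands for. Within each day the numbers run in separate blocks, rising from vehicle through WY14643 and GW501516 to rosiglitazone. Differences between these groups therefore cannot be told apart from the order of the numbers.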
